A study of Homo sapiens with 18 samples.

Results

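The replication-dependent histone genes encode the linker histone H1 and the core histones H2A, H2B, H3 and H4 that are made in bulk while DNA is copied. They were taken from the protein-coding rows of the count table by current symbol. The symbols were H1-1 to H1-6, or H2AC, H2BC, H3C or H4C followed by a number. Older annotation gave them names that begin with HIST1, HIST2 or HIST3, save H4C16, which it called HIST4H4. The rule used no measured value. It found 69 genes among 58721 rows: 6 of H1, 17 of H2A, 18 of H2B, 13 of H3 and 15 of H4.

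RNA was sequenced from A375, an established human melanoma cell line, in 6 groups of 3 libraries. Knockout cells carried either of 2 guides against TADA2B, which encodes a subunit of the chromatin-modifying SAGA complex. Each was profiled alone and together with overexpressed SOX10, which encodes a regulator of melanocyte identity. Cells with a guide against GFP, a gene that the cells do not have, were profiled with SOX10 overexpression and without it. The last group, labelled WT, is called control below, and all 6 groups carried a guide. The labels do not say whether the knockouts were clones or pools, nor whether the 3 libraries of a group came from separate cultures, so the p-values measure only the spread between these libraries, which may be technical.

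Most replication-dependent histone transcripts do not end in a poly(A) tail. Their 3′ end is made by cleavage just after a short stem-loop, which the stem-loop binding protein SLBP recognises and which ties the life of the transcript to S phase. Some of the genes can also be read through to a later poly(A) signal, and such transcripts carry a tail and are known from cells that divide slowly or have left the cycle. The libraries here were made with a kit that selects polyadenylated RNA, so a count of a histone gene is mainly a count of its tailed transcripts. More transcription, less stem-loop processing and longer-lived tailed transcripts cannot be told apart in such libraries, nor, in bulk RNA, can fewer cells of a kind and less RNA per cell.

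Total counts ran from 58573910 to 79874237 per library, at which 3 counts corresponded to 0.0359 to 0.0493 CPM. Levels are counts-per-million (CPM) values after scaling of the libraries by trimmed means (TMM). The targeted gene TADA2B was at 25.6 to 30.2 CPM in the knockout libraries without SOX10 and at 32.2 to 32.8 CPM in control libraries, a log2 change of −0.25 ± 0.04 (SE), so its transcript was reduced but not lost. SOX10 was at 240.4 to 307 CPM in knockout cells with SOX10, at 39.9 to 87.0 CPM in knockout cells, at 450.5 to 453.6 CPM in control cells with SOX10 and at 340.5 to 364 CPM in control cells. The summed level of 9 melanocyte lineage markers averaged 174.5 and 140.4 CPM in the guide 1 and guide 2 knockouts. In the same knockouts with SOX10 it averaged 410.2 and 333.9 CPM. It averaged 738 CPM in control cells with SOX10 and 415.1 CPM in control cells. SOX10 itself is among the 9 and made up most of the sum in control cells, and TYR was at or near 0. Of the 8 markers tested, 3 rose and 5 fell in knockout against control cells. Over all genes tested 28.6% were called higher and 29.5% lower. Of the 6 fibroblast markers, 4 rose with the knockout, DCN did not pass and COL1A2 was too low to test, and their sum averaged 38.3 and 40.9 CPM in the guide 1 and guide 2 knockouts against 7.95 CPM in control cells; their part in the histone results was not tested. Sums of keratinocyte markers averaged 43.3 to 48.8 CPM and of leukocyte markers 5.64 to 20.9 CPM over the groups, the leukocyte sum being highest in the knockouts with SOX10.

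Of the 69 histone genes, 57 had enough counts to be tested and 12 did not. H2AC1, H2BC1, H3C4, H2AC7, H4C7, H2AC15, H3C11 and H4C13 had no count in any library. Among these, H3C4 lies wholly and H2AC7 over 97.96% of its length within the exons of another gene on the same strand, and H2AC15 wholly opposite H2BC15; the part of these overlaps in the counts of 0 was not tested. H1-6, H2AC4, H2AC16 and H2AC17 had counts too low for a test. Together the 69 genes took 0.00579% to 0.0130% of the counts of a library.

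The genes differ in how their 3′ end is annotated. In the GENCODE 29 annotation 25 members have a transcript with a 3′ untranslated region (UTR) of more than 150 bases, and all 25 were tested: 3 of H2A, 11 of H2B, 5 of H3 and 6 of H4. The other 44, of which 32 were tested, end at or soon after the coding sequence in this annotation. The stem-loop was found in annotated transcripts of 30 members, among them 23 of the 25 with a long 3′ UTR. In 20 of these 25 a poly(A) signal, AATAAA or ATTAAA, lay in the last 50 bases of a long transcript. The stem-loop took 5 forms, and 17 members had the form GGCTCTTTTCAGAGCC. The following 30-base stretches are shown because they hold the element that sets the usual end of these transcripts; they are transcript sequence of GENCODE 29 written as DNA, with the stem-loop in capitals.
H2AC6: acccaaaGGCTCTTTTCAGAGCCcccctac
H2AC19: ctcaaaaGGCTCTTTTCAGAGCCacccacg
H3C10: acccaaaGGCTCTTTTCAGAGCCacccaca
H3C8: ttaaaaaGGCTCTTTTAAGAGCCgcctact
H4C14: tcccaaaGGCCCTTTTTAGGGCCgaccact

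In the H2AC6 transcript ENST00000314088 a further 1128 bases followed the stem-loop, 1518 bases followed it in H3C8, 769 bases in H3C10 and 1167 bases in the longest H4C14 transcript that holds it, while in H2AC19 only 35 bases did. The downstream ends of the longer transcripts held these signals, with the hexamer in capitals.
H2AC6: ggcatgaggtAATAAAaggtaatgcaaagg
H3C10: tgtatgactaAATAAAatctgtataatccc
H3C8: ataatagtttAATAAAacctatgttcctct
H4C14: cacatttaagAATAAAcagtccagtagtaa

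H2BC11 and H3C6 are the only members with a long 3′ UTR in which none of the annotated transcripts holds the stem-loop. The models of H1-2 and H2BC12 are coding sequence only, so the annotation says nothing of their 3′ ends.

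The promoters shared the sequence features that are typical of these genes. RefSeq promoters of GRCh38.p14, 250 bases before to 50 after the start, were at hand for 64 members and for 27305 genes in all, and motifs were searched on both strands. The TATA box was searched as TATANA and found in 84.4% of the members' promoters and in 19.7% of all promoters, and in 72% of members with a long 3′ UTR and 92.3% of the others. CCAAT was found in 84.4% and 35.7%, in every promoter of H1, H2A, H2B and H3 but in only 3 of 13 of H4. The octamer ATTTGCAT, a site of POU factors, was found in 40.6% and 1.8%, namely in 14 of 18 promoters of H2B, 11 of 16 of H2A and 1 of 11 of H3. AAACACA, known as the H1 box, was found in 6 of 6 promoters of H1 and in 5.76% of all. By annotation of the 3′ end the promoters were alike in the octamer, which 40% of those with a long 3′ UTR and 41% of the others held. The 150 bases before the start are shown for H1-2, H2AC6, H2BC12 and H4C14, the members with the highest counts, and for H2BC9, which went the other way in the contrast of SOX10 effects below; matches are in capitals.
H1-2, chr6:26056471-26056620, minus strand: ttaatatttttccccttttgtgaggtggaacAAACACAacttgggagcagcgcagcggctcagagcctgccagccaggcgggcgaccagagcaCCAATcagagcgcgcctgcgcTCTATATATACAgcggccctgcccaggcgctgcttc
H2AC6, chr6:26124022-26124171, plus strand: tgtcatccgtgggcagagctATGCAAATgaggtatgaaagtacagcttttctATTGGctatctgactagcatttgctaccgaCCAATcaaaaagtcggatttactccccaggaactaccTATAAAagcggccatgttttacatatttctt
H2BC12, chr6:27146859-27147008, minus strand: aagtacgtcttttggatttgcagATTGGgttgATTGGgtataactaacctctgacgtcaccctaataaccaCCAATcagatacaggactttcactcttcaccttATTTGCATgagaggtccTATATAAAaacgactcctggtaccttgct
H4C14, chr1:149832507-149832656, plus strand: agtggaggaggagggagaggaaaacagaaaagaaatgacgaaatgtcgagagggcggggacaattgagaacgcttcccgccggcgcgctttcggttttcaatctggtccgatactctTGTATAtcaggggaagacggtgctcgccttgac
H2BC9, chr6:26251464-26251613, plus strand: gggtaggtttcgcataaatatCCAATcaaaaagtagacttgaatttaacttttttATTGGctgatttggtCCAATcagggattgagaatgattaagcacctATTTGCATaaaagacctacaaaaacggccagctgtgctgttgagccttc

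H2AC6 and H2BC12 held a TATA box, CCAAT boxes and the octamer, on one strand or the other, whereas H4C14 held only a TATA match and H2BC9 no TATA match within these bases.

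Levels per length were low and uneven. Over all 18 libraries H2BC12 averaged 27.2 CPM per kb of exon and H1-2 averaged 17.3 CPM per kb. The next were H2AC6 with 5.88, H2AC19 with 5.30, H4C14 with 4.07 and H4C9 with 3.80 CPM per kb. H4C14 and H4C15, H3C14 and H3C15, and H2AC18 and H2AC19 are near-identical copies in 1q21, with over 97% of their 50-base windows present elsewhere among the annotated transcripts, so the split of counts within each couple is uncertain. Such sharing also touched H2BC12, where 74.1% of the windows were not unique; 12 of the 57 members tested shared at least 50% of theirs.

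Knockout of TADA2B went with higher counts of a set of histone genes from every class. With the 2 guides averaged, 19 members rose, 1 fell and 37 did not pass the test, a called share of 35.1% where 58.1% of all 21060 genes tested were called. The members' share was therefore below that of all genes, while the direction was uneven, since 28.6% of all genes were called higher and 29.5% lower. The rise was at least 2-fold in H1-2, H2AC6, H3C10, H3C6, H2BC11, H4C14 and H2AC19, and the single fall, of H3C12, was also of that size. Changes are those of edgeR's quasi-likelihood fit, with Benjamini-Hochberg adjustment over all genes tested.

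H1-2, which encodes the linker histone H1.2 and lies at chr6:26055787-26056428 of hg38, had 15.2, 17.7 and 15.7 CPM in the guide 1 knockout and 17.7, 17.1 and 17.5 CPM in the guide 2 knockout, against 5.34, 5.54 and 6.38 CPM in control cells. All 6 knockout libraries lay above all 3 control libraries. The change was 1.55 ± 0.07 on the log2 scale (SE; adjusted p = 5.31e-22), a 2.92-fold rise, with 1.49 in guide 1 and 1.60 in guide 2. The other H1 genes did not follow: H1-1, H1-3, H1-4 and H1-5 changed by −0.54, 0.27, −0.11 and −0.54, and none of these passed the test.

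H2AC6, a core histone H2A gene at chr6:26124145-26139116, had 14.9, 17.5 and 19.1 CPM in the guide 1 knockout and 13.7, 14.8 and 16.4 CPM in the guide 2 knockout, against 5.47, 4.76 and 6.47 CPM in control cells. The groups did not overlap, and the change was 1.53 ± 0.09 (adjusted p = 6.42e-16). H2AC19, one of the duplicated H2A genes of 1q21, had 4.64, 4.35 and 3.84 CPM in the guide 1 knockout and 3.65, 4.90 and 4.11 CPM in the guide 2 knockout, against 2.31, 1.70 and 2.14 CPM in control cells. Its change was 1.05 ± 0.14 (adjusted p = 5.11e-08), and that of its copy H2AC18 was 0.86 ± 0.18. H2AC25 at 1q42 and H2AC11 rose by 0.44 and 0.41, so that 5 of the 11 H2A genes tested rose and none fell.

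Among the H2B genes, 5 of 17 rose and none fell. H2BC12 had 13.9, 14.5 and 13.0 CPM in the guide 1 knockout and 12.9, 12.4 and 12.7 CPM in the guide 2 knockout, against 7.59, 7.96 and 7.87 CPM in control cells. The groups were well apart and the libraries within each lay close together, and the change was 0.76 ± 0.07 (adjusted p = 5.77e-13). H2BC11 had 2.97, 3.01 and 3.57 CPM in the guide 1 knockout and 2.20, 2.26 and 2.77 CPM in the guide 2 knockout, against 1.24, 1.30 and 1.04 CPM in control cells. That was a change of 1.21 ± 0.14 (adjusted p = 9.99e-10). H2BC5 had 3.87, 4.27 and 3.75 CPM in the guide 1 knockout and 3.05, 3.18 and 3.07 CPM in the guide 2 knockout, against 2.62, 2.46 and 2.83 CPM in control cells. Its rise of 0.41 ± 0.12 (adjusted p = 0.00255) passed the test for guide 1, at 0.59, and did not for guide 2, at 0.23. H2BC21 had 5.29, 5.11 and 4.92 CPM in the guide 1 knockout and 3.45, 6.06 and 3.90 CPM in the guide 2 knockout, against 3.37, 3.51 and 2.57 CPM in control cells. Its groups overlapped, and the change of 0.59 ± 0.22 had an adjusted p of 0.0293; it no longer passed without control replicate 1 or without control replicate 3. H2BC4 was the fifth, with a rise of 0.66 ± 0.20.

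Of the 11 H3 genes tested, 4 rose and 1 fell. H3C10 had 1.19, 1.26 and 0.853 CPM in the guide 1 knockout and 1.08, 0.767 and 0.902 CPM in the guide 2 knockout, against 0.209, 0.548 and 0.415 CPM in control cells, and changed by 1.36 ± 0.24 (adjusted p = 5.63e-06). H3C6 had 1.53, 1.68 and 1.35 CPM in the guide 1 knockout and 1.42, 1.42 and 1.26 CPM in the guide 2 knockout, against 0.656, 0.786 and 0.400 CPM in control cells, and changed by 1.22 ± 0.18 (adjusted p = 1.7e-07). In both genes the knockout libraries lay above all control libraries. H3C8 had 1.68, 1.73 and 1.97 CPM in the guide 1 knockout and 1.10, 1.21 and 0.938 CPM in the guide 2 knockout, against 0.745, 0.756 and 0.645 CPM in control cells. The change of H3C8 was 0.96 ± 0.25 with the guides averaged, 1.32 in guide 1 and 0.59 in guide 2, where it did not pass. The fourth, H3C15, rose by 0.60 ± 0.25. H3C12 fell: it had 0.250, 0.319 and 0.351 CPM in the guide 1 knockout and 0.335, 0.442 and 0.180 CPM in the guide 2 knockout, against 0.566, 0.652 and 0.661 CPM in control cells. That change of −1.01 ± 0.29 (adjusted p = 0.00306) rested on 15 to 30 counts in each knockout library and 38 to 44 in each control library, and 40.9% of its 50-base windows occur elsewhere.

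Of the 13 H4 genes tested, 4 rose and none fell. H4C14 had 12.0, 12.6 and 14.3 CPM in the guide 1 knockout and 9.69, 10.4 and 10.4 CPM in the guide 2 knockout, against 4.55, 5.10 and 6.44 CPM in control cells, a change of 1.10 ± 0.08 (adjusted p = 2.53e-15). Its copy H4C15 rose by 0.92 ± 0.12. H4C9 had 6.59, 7.21 and 6.38 CPM in the guide 1 knockout and 5.19, 6.31 and 5.82 CPM in the guide 2 knockout, against 3.11, 3.35 and 3.32 CPM in control cells, a change of 0.93 ± 0.08 (adjusted p = 1.06e-12). H4C8 was the fourth, with 0.75 ± 0.16. H4C1, at 0.333, 0.277 and 0.339 CPM in the guide 1 knockout and 0.335, 0.442 and 0.144 CPM in the guide 2 knockout, against 0.209, 0.400 and 0.292 CPM in control cells, gave 0.04 ± 0.33 and did not pass.

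**Figure D1:**
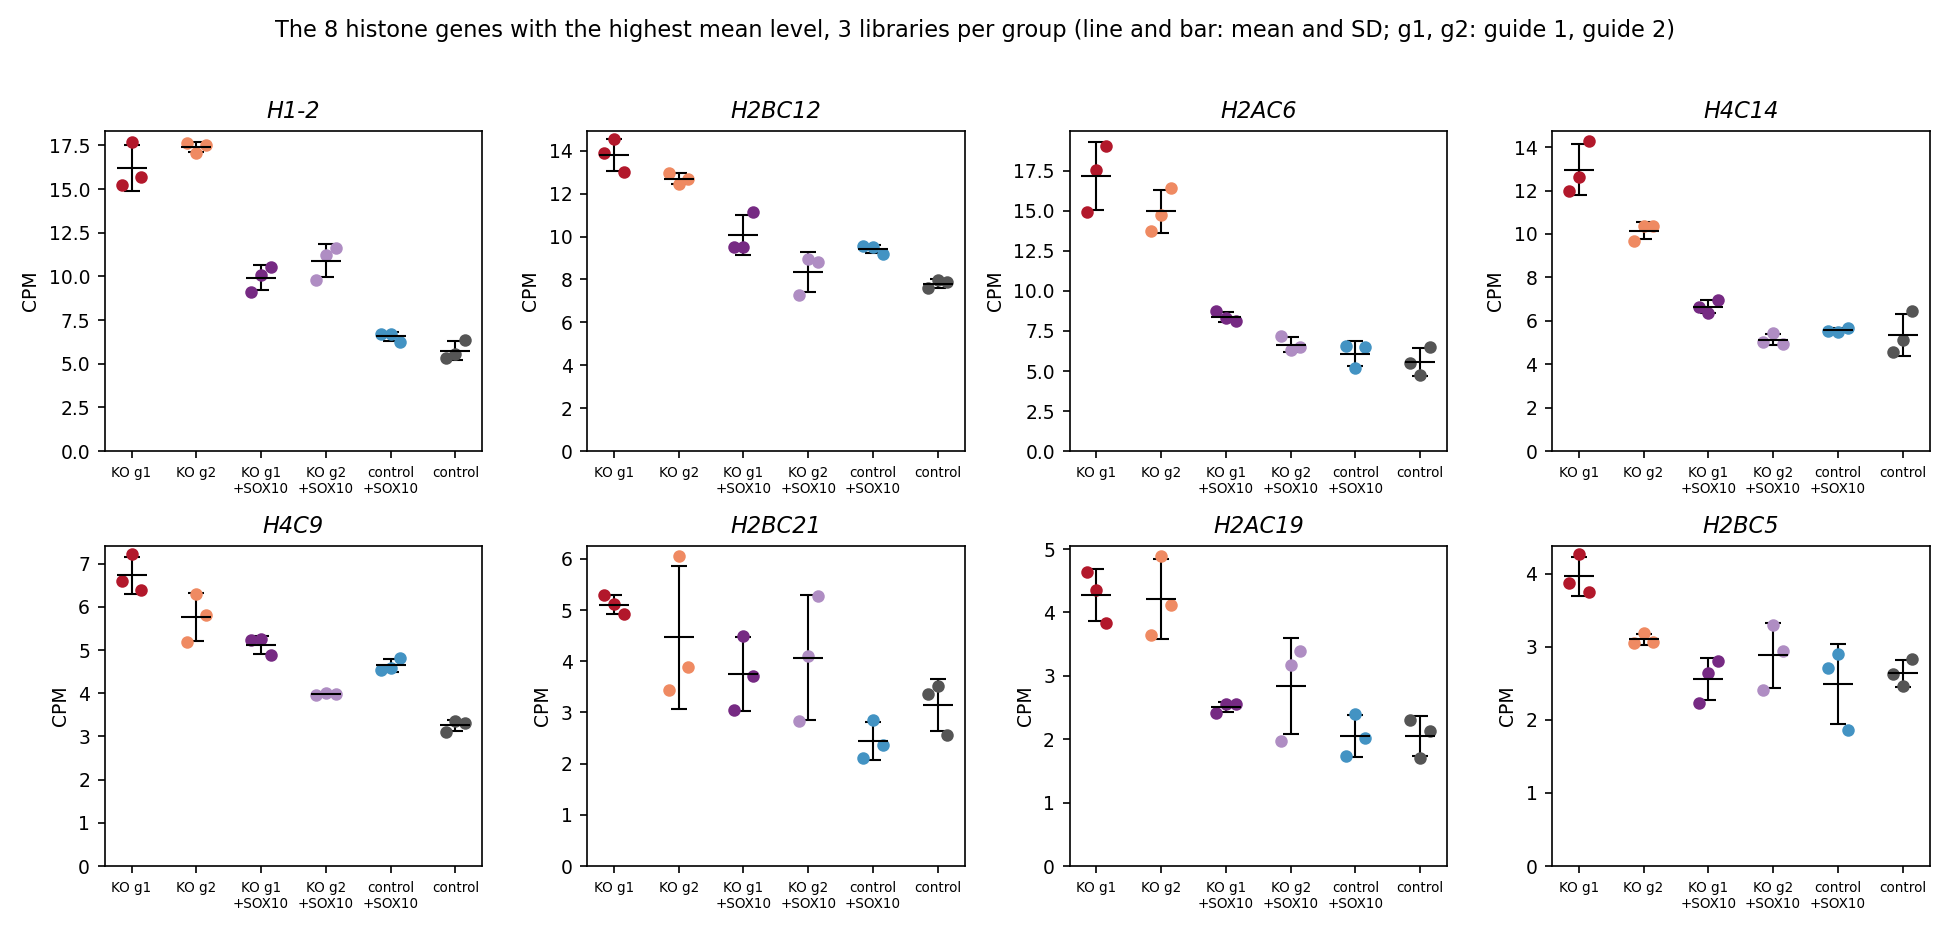
Level in CPM (y axis, from 0) of the 8 histone genes with the highest mean level, for the 6 groups along the x axis; points are the 3 libraries of a group, and the line and bar are their mean and SD. In H1-2, H2AC6, H2BC12 and H4C14 all knockout libraries sit above all libraries of the other groups, for H1-2 at 15.2 CPM or more in the knockouts and 6.38 CPM or less in control cells.

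Described by annotated 3′ end, 15 of the 25 members with a long 3′ UTR rose and none fell, with a median log2 change of 0.60. That is a called share of 60% where 58.1% of all genes were called, so the share was near that of all genes and only the direction, with 28.6% of all genes higher and 29.5% lower, was uneven. Of the 32 others tested, 4 rose and 1 fell, with a median of −0.09; over all genes tested the median was −0.01. The 4 that rose were H1-2, H2BC12, H2AC18 and H2AC19. In control cells the 25 members with a long 3′ UTR summed to 39.3 CPM. The 42 members left without them, H1-2 and H2BC12 summed to 13.6 CPM, so changes were harder to call there. The part of the level in this split was not tested. A further list held 6 genes known from earlier work to give tailed transcripts, H1-2, H2AC6, H2BC4, H2BC5, H2BC12 and H2BC21. With the guides averaged all 6 rose. Like the other lists, it was chosen with earlier results of these data known. By place, 6 of 11 genes tested in 1q21 rose, where 28.6% of all genes were called higher. Save H2BC21, these 6 belong to the near-identical couples, so reads may be shared between copies and their rises may not be independent. In the 6p22 cluster 7 of 27 rose in the larger, telomeric part and 5 of 16 in the smaller part. The summed level of all 69 genes averaged 122.7 ± 2.9 CPM in the guide 1 knockout and 111.5 ± 11.8 CPM in the guide 2 knockout, against 66.4 ± 1.9 CPM in control cells (SD, n = 3 each).

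Each guide was also compared with the same control libraries on its own. In guide 1, 20 members rose and 1 fell, where 52.6% of all genes were called, 26.2% higher and 26.4% lower. In guide 2, 13 rose and 1 fell, where 55.9% were called, 27.9% higher and 28.1% lower. Of the 25 members with a long 3′ UTR, 16 rose in guide 1 (64%) and 9 in guide 2 (36%), and none fell. The share in guide 2 was below that of all genes. All 6 genes of the tailed list rose in guide 1, but only 3 of them passed in guide 2. Guide 2 against guide 1 gave 2 calls, where 8.74% of all genes were called, 2.65% higher and 6.09% lower: H4C14 at −0.36 ± 0.08 and H4C15 at −0.42 ± 0.13, both lower in guide 2. Without any single one of the guide 1 libraries that count was 0 or 1.

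SOX10 overexpression in the knockout cells went with lower counts of some of the members just described. This comparison shares the knockout libraries with the one above. Of the 57 members, 16 fell, 4 rose and 37 did not pass. That is a called share of 35.1%, where 56.2% of all genes were called, 28.1% higher and 28.1% lower. The members' share was therefore below that of all genes, and their share called lower was near that of all genes. Only the direction was uneven. Members with a long 3′ UTR fell in 10 of 25 cases and rose in none. Of the 6 genes known to give tailed transcripts, 5 fell and H2BC21, at −0.29 ± 0.17, did not pass. Also among the 16 were H3C13 at −0.99, H4C15 at −0.96, H2AC18 at −0.75, H2AC13 at −0.66, H2BC4 at −0.51 and H2AC25 at −0.50.

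H1-2 had 9.13, 10.1 and 10.5 CPM in the guide 1 knockout with SOX10 and 9.81, 11.2 and 11.6 CPM in the guide 2 knockout with SOX10, against 15.2 to 17.7 CPM in the 6 knockout libraries without it. The change was −0.69 ± 0.05 (adjusted p = 3.75e-15). H2AC6 had 8.74, 8.29 and 8.14 CPM in the guide 1 knockout with SOX10 and 7.17, 6.29 and 6.51 CPM in the guide 2 knockout with SOX10, against 13.7 to 19.1 CPM without it, a change of −1.10 ± 0.07 (adjusted p = 1.84e-15). In both genes the groups did not overlap and both guides moved alike: H2AC6 changed by −1.03 in guide 1 and −1.17 in guide 2.

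H4C14 had 6.66, 6.36 and 6.96 CPM in the guide 1 knockout with SOX10 and 5.05, 5.44 and 4.93 CPM in the guide 2 knockout with SOX10, against 9.69 to 14.3 CPM without it, a change of −0.97 ± 0.06 (adjusted p = 4.16e-17). H3C8 had 1.05, 0.546 and 0.431 CPM in the guide 1 knockout with SOX10 and 0.256, 0.588 and 0.329 CPM in the guide 2 knockout with SOX10, against 0.938 to 1.97 CPM without it. At −1.44 ± 0.21 (adjusted p = 3.54e-07) that was a larger fitted change than in any other member tested, although 1 library overlapped. H2BC12, H2AC19 and H3C10 fell by 0.53, 0.67 and 0.84 with no overlap of libraries, and H4C9, H2BC5 and H2BC11 fell by 0.46, 0.37 and 0.64 with some. H3C6 had 1.31, 1.64 and 1.36 CPM in the guide 1 knockout with SOX10 and 0.999, 1.24 and 1.28 CPM in the guide 2 knockout with SOX10, against 1.26 to 1.68 CPM without it. Its change of −0.15 ± 0.13 did not pass.

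The 4 members that rose with SOX10 in knockout cells were H4C3 at 0.50 ± 0.19, H2AC14 at 0.83 ± 0.36, H2AC12 at 0.95 ± 0.34 and H4C4 at 0.90 ± 0.33, all at means under 1 CPM in the knockout groups and without a long 3′ UTR. Their adjusted p-values were 0.0208, 0.0463, 0.0153 and 0.0191. None of these 4 passed when 3 libraries that stood apart, described next, were left out, with adjusted p of 0.0996, 0.498, 0.156 and 0.0581. In that fit 19 members fell and none rose, where 48.2% of all genes were called in either direction. All 6 of the tailed list were among those that fell.

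**Figure D2:**
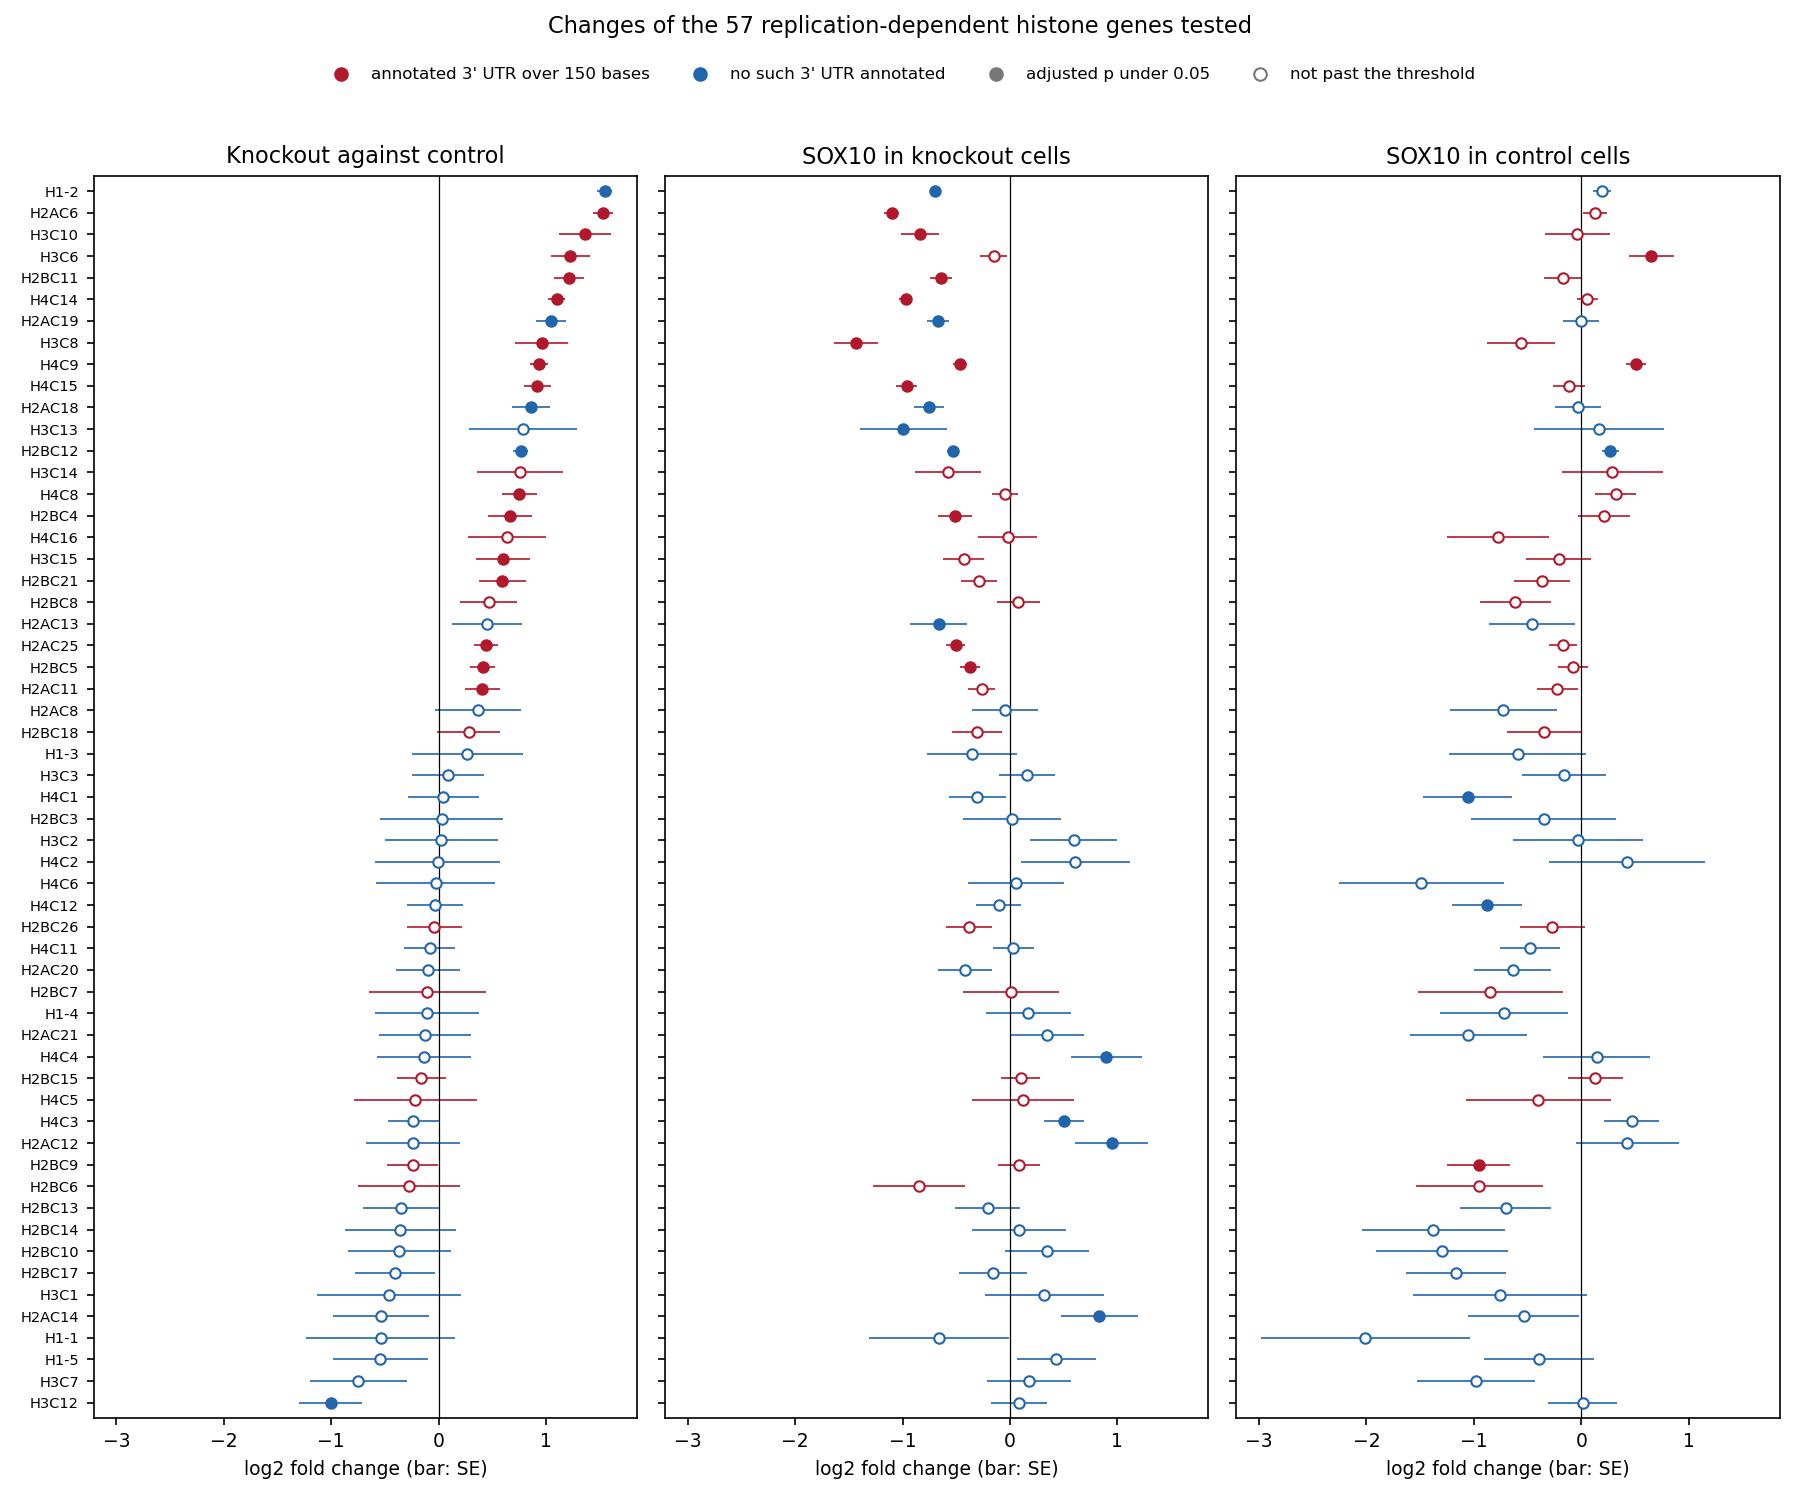
Fitted log2 fold change (x axis, bars are SE) of the 57 histone genes tested, ordered by their change in knockout against control cells, for that comparison, for SOX10 in knockout cells and for SOX10 in control cells; red marks a 3′ UTR of more than 150 bases, filled points passed at an adjusted p under 0.05. The upper genes run from H1-2 at 1.55 and H2AC6 at 1.53 in the left panel to −0.69 and −1.10 in the middle panel, which shares the knockout libraries with it, and H3C12, at −1.01, is the only filled point on the lower side of the left panel, where 26 of the 57 changes are negative.

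In 3 libraries an RNA that is not polyadenylated, RN7SL2, stood out. RN7SL2, the RNA of the signal recognition particle, was at 61.2 CPM in guide 2 knockout replicate 2 and at 72.4 and 64.7 CPM in replicates 2 and 3 of the guide 2 knockout with SOX10, against 3.32 to 22.1 CPM in the other 15 libraries. A sum of 12 RNAs without a tail, nearly all of it RN7SL2 in these libraries, was also higher with SOX10 outside them. It averaged 11.7 CPM in the guide 1 knockout with SOX10 against 4.53 CPM in the guide 1 knockout. In control cells it averaged 17.6 CPM with SOX10 against 5.66 CPM without. In neither case did the libraries overlap. Only 2 of the 12 had enough counts for a test, and neither was called in these comparisons. The sum over all genes of small nuclear and nucleolar RNAs averaged 50.6 CPM against 45.1 CPM in the guide 1 knockout. In control cells it averaged 54.1 CPM with SOX10 against 56.8 CPM without. The part of these RNAs in the SOX10 results was not tested. The same 3 libraries had more of the 42 members that have no long 3′ UTR and are not on the tailed list: 23.4, 20.98 and 21.84 CPM in sum, against 9.10 to 17.7 CPM in the others. The part of these libraries in the results was not tested, but results without them are given. In knockout against control cells 18 members then rose and 2 fell, where 55.2% of all genes were called in either direction. Among them were 14 of the 25 with a long 3′ UTR, which all rose, and all 6 of the tailed list. H1-2, H2AC6 and H4C14 kept their direction and call in that fit.

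**Figure D3:**
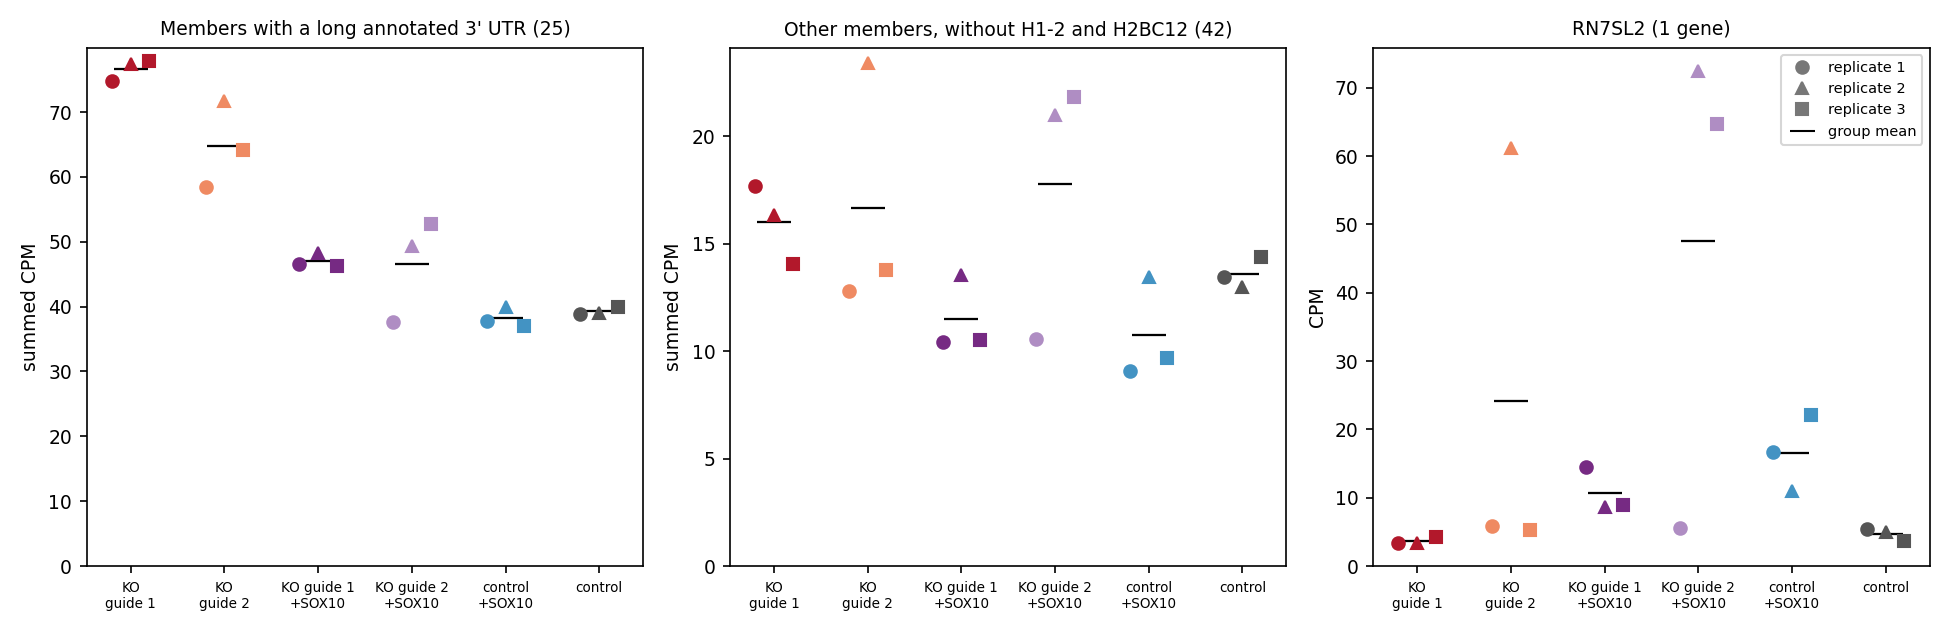
Summed CPM per library of the 25 members with a long annotated 3′ UTR (left) and of 42 other members (middle), and CPM of RN7SL2 (right), by group along the x axis; the marker shape gives the replicate and the line the group mean. Replicate 2 of the guide 2 knockout and replicates 2 and 3 of the guide 2 knockout with SOX10 lie highest in the middle and right panels, at 20.98 to 23.4 and 61.2 to 72.4 CPM.

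SOX10 itself rose by 0.35 ± 0.04 (log2, SE) with its overexpression in control cells and by 2.15 ± 0.03 in knockout cells. The size of its rise thus differed. Few members changed in control cells. There were 3 that rose and 3 that fell of 57, where 34.4% of all genes were called, 17.3% higher and 17.2% lower, although 40 of the 57 fitted changes were negative and their median was −0.34. With only the groups compared in the fit, and again without the 3 libraries that stood apart, 3 members rose and 8 fell. In the fit without these libraries 33.8% of all genes were called in either direction. H2BC12 had 9.55, 9.49 and 9.20 CPM in control cells with SOX10, against 7.59, 7.96 and 7.87 CPM in control cells, a rise of 0.27 ± 0.08 (adjusted p = 0.00517). H4C9 had 4.54, 4.58 and 4.82 CPM with SOX10, against 3.11, 3.35 and 3.32 CPM in control cells, a rise of 0.51 ± 0.10 (adjusted p = 3.85e-05). H3C6 was the third, with 0.982, 1.05 and 0.867 CPM with SOX10 against 0.656, 0.786 and 0.400 CPM in control cells, a change of 0.65 ± 0.21 that no longer passed without control replicate 3 or without replicate 2 of control cells with SOX10. In none of these 3 genes did the groups overlap.

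The members that fell were few in counts. H2BC9 had 0.396, 0.698 and 0.353 CPM in control cells with SOX10, against 1.04, 1.01 and 0.768 CPM in control cells, a change of −0.95 ± 0.29 (adjusted p = 0.00912). H4C1 had 0.109, 0.188 and 0.132 CPM with SOX10, against 0.209, 0.400 and 0.292 CPM in control cells, a change of −1.06 ± 0.42 (adjusted p = 0.0457) on 8 to 14 counts in each library with SOX10. Neither call held without replicate 1 or without replicate 3 of control cells with SOX10, and that of H4C1 was also lost without control replicate 2 or 3, with DESeq2, with no filter and with only the groups compared in the fit. H4C12, whose sequence is wholly shared with other genes, fell by 0.88 ± 0.33. H1-2, H2AC6 and H4C14 changed by 0.19, 0.13 and 0.06 and did not pass.

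The difference between the SOX10 effects in knockout and in control cells was tested directly. For SOX10 itself it was 1.80 ± 0.05, and the part of this in the members' differences was not tested. The difference was negative in 10 members and positive in 1, a called share of 19.3%. Of all genes 33.3% were called, 18.1% higher and 15.1% lower, so the members' share was below that of all genes. The negative ones included H2AC6 at −1.23 ± 0.13 (adjusted p = 1.92e-09), H4C14 at −1.03 ± 0.11 (adjusted p = 1.06e-09), H4C9 at −0.97 ± 0.12 and H1-2 at −0.89 ± 0.10. For H2BC12 and H4C9, SOX10 went with a rise in control cells and with a fall in knockout cells, with a difference of −0.80 ± 0.09 in H2BC12. The call of H2AC19 was lost without replicate 2 of control cells with SOX10 and that of H3C6 without control replicate 3, at −0.53 and −0.58. H2BC9 was the exception at 1.04 ± 0.35 (adjusted p = 0.0196), with 0.466, 0.780 and 0.647 CPM in the guide 1 knockout with SOX10 and 0.719, 1.34 and 1.35 CPM in the guide 2 knockout with SOX10, against 0.736, 0.679 and 0.840 CPM in the guide 1 knockout and 0.586, 1.25 and 0.709 CPM in the guide 2 knockout. Its call rested on the control groups and did not hold without control replicate 1 or 2, nor without replicate 1 or 3 of control cells with SOX10, at 0.86 to 0.99.

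By guide, 19 members fell with SOX10 and 1 rose in guide 1, where 43.7% of all genes were called, 22.0% higher and 21.7% lower. In guide 2, 11 fell and 2 rose, where 48.6% were called, 24.6% higher and 24.0% lower. These comparisons share no library. All 11 that fell in guide 2 also fell in guide 1, which is 57.9% of the 19. The same overlap over all genes was not counted, so that of the members cannot be set against it. The difference between the guides gave 0 calls with edgeR and with DESeq2, where 2.51% of all genes were called, 1.77% higher and 0.741% lower, and 6 members had an unadjusted p under 0.05.

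The knockout effect was also read among SOX10-overexpressing cells, in libraries other than those of the first comparison. There 13 members rose and 1 fell, where 55.0% of all genes were called, 28.2% higher and 26.7% lower. Of the 19 that rose without SOX10, 7 also rose here (36.8% of the 19 and 53.8% of the 13): H1-2, H2AC6, H2AC19, H2BC11, H2BC21, H3C6 and H4C8. A further 9 of the 19 had a positive change that did not pass. Here too the same overlap over all genes was not counted. H1-2 changed by 0.66 ± 0.07 and H2AC6 by 0.30 ± 0.09, against 1.55 and 1.53 in cells without SOX10, while H4C14 at 0.07 and H2BC12 at −0.04 did not pass. H3C12 fell here too, by 0.94 ± 0.29. The other 6 that rose here were H4C16, H2BC10, H2AC21, H2BC8, H2BC9 and H4C12, at 1.39, 1.28, 1.27, 1.16, 0.79 and 0.74, and the difference from cells without SOX10 passed its own test in H2BC9. Without the 3 libraries that stood apart 6 members rose and 1 fell, where 49.1% of all genes were called. Without control cells with SOX10 replicate 1 or 3 there were 8 and 7 calls.

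Set against control cells, knockout cells with SOX10 had 8 members higher and 1 lower, where 57.9% of all genes were called, 30.0% higher and 27.9% lower; this comparison shares its libraries with those above. H3C6 was higher by 1.07 ± 0.18 and H1-2 by 0.85 ± 0.07, H2AC6 by 0.43 ± 0.09 and H2BC12 by 0.23 ± 0.07, whereas H4C14 at 0.13 ± 0.08 did not pass. Without the 3 libraries that stood apart there were 6 members higher and 9 lower, where 51.9% of all genes were called. The summed level of all 69 genes averaged 78.5 ± 2.9 CPM in the guide 1 knockout with SOX10, 83.6 ± 16.0 CPM in the guide 2 knockout with SOX10 and 65.0 ± 4.1 CPM in control cells with SOX10, against 66.4 ± 1.9 CPM in control cells (SD, n = 3 each).

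Many H2A and H2B genes lie head to head and share the stretch between them. There were 8 such pairs with starts at most 500 bases apart and both partners tested. H2AC6 and H2BC4, 219 bases apart, changed by 1.53 ± 0.09 and 0.66 ± 0.20 in knockout against control cells. H2BC11 and H2AC11, 292 bases apart, changed by 1.21 ± 0.14 and 0.41 ± 0.16. H2BC12 rose by 0.76 ± 0.07 while H2AC12, 331 bases away, was at −0.24 ± 0.44. The log2 ratio of the partners was compared between the 6 knockout and 3 control libraries by an exact two-sided permutation test, whose smallest possible p is 0.0238. The difference for H2AC11 over H2BC11 was −0.81 and that for H2AC20 over H2BC21 was −0.76, each at this smallest p with no overlap of libraries. Adjusted over the 8 pairs the lowest p was 0.0952. A single pair could not have passed, since even this smallest p is over 0.05 after adjustment unless several pairs reach it. In the same test of SOX10 in knockout cells, 6 against 6 libraries, the largest difference was that of H2AC12 over H2BC12. It was 1.47, with an exact p of 0.00649 and 0.0519 after adjustment. H2AC12 averaged only 0.215 CPM over all libraries, and its own rise did not pass without the 3 libraries that stood apart. The test of pairs was not repeated without them.

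**Figure D4:**
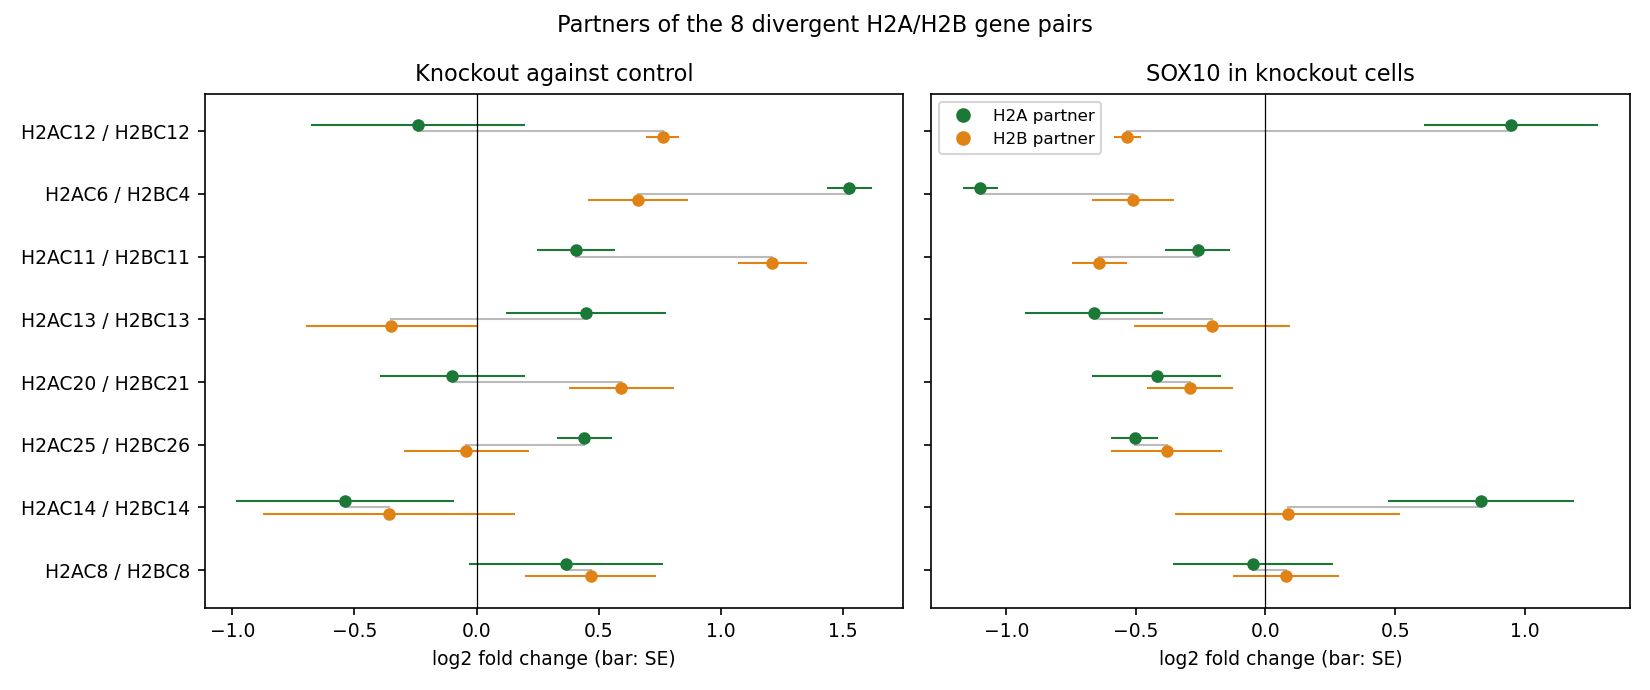
Fitted log2 fold change (x axis, bars are SE) of the H2A (green) and H2B (orange) partner of each of the 8 head-to-head pairs tested, in knockout against control cells (left) and for SOX10 in knockout cells (right). In the left panel H2AC6 lies at 1.53 and H2BC4 at 0.66, and H2BC11 at 1.21 and H2AC11 at 0.41.

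Genes that make and use histone transcripts were described from lists. Most of them, though not most of the 15 processing genes, went down in knockout against control cells. Over all genes tested 28.6% were called higher and 29.5% lower. Of 15 genes of histone 3′ processing and decay, 4 rose and 7 fell. SLBP had 125.0, 127.3 and 130.0 CPM in the guide 1 knockout and 116.5, 123.9 and 124.9 CPM in the guide 2 knockout, against 157.5, 162.0 and 162.7 CPM in control cells, a change of −0.37 ± 0.03 (adjusted p = 5.05e-16). UPF1, which takes part in histone transcript decay, fell by 0.25, while the exonuclease ERI1 and the cleavage complex subunit CPSF2 rose by 0.31 and 0.21. With scaling by library size alone, which moved the median change of all genes to 0.15, 8 of the 15 rose and 2 fell. Of 9 genes of histone gene transcription, 2 rose and 7 fell. NPAT, the coactivator at the histone gene clusters, changed by −0.27 ± 0.03, CCNE2, CDK2 and E2F1 by −0.56, −0.27 and −0.66, and CCNE1 by 0.39.

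The 20 S-phase genes include parts of the replication machinery. Of the 20, 18 fell and none rose, where 28.6% of all genes were called higher and 29.5% lower. Among those that fell were MCM3 by 0.60, TYMS by 0.69 and PCNA by 0.44. Of 19 histone chaperones, 16 fell and none rose, with UBN1, NASP, SSRP1 and ASF1A at −0.61, −0.29, −0.27 and −0.41. Of 11 variant histone genes, which are made outside S phase as well, 9 fell and 1 rose, H2AJ at 0.72, with H3-3A, H3-3B, H2AZ1 and H2AX at −0.56, −0.51, −0.42 and −0.40. By library size alone 60.1% of all genes were called. There 16 of the S-phase genes fell and 2 rose, 7 chaperones fell and 3 rose, and 6 variant genes fell and 3 rose. Of the histone genes 19 still rose and 1 fell. The summed S-phase level averaged 3456 CPM in the guide 1 knockout and 3384 CPM in the guide 2 knockout, 3745 and 3572 CPM in the same knockouts with SOX10, 3724 CPM in control cells with SOX10 and 4245 CPM in control cells. The histone sum and the S-phase sum thus ran opposite ways in the knockouts; the part of the cell cycle in the histone results was not tested.

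With SOX10 in knockout cells 14 of the 20 S-phase genes rose and 1 fell, and 10 of 19 chaperones rose and 4 fell. Over all genes 28.1% were called higher there and 28.1% lower. SLBP and NPAT rose by 0.10 and 0.19. In control cells SOX10 went with 16 S-phase genes falling and none rising, where 17.3% of all genes were called higher and 17.2% lower. SLBP changed by −0.34 ± 0.03 in that comparison. The difference between these SOX10 effects was positive for 18 of the 20 S-phase genes and for SLBP, at 0.44 ± 0.04. Over all genes it was called positive in 18.1% and negative in 15.1%.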

How the data were processed

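Raw counts of reads for each gene in 18 libraries were deposited by the authors as 1 table. Per the submitters' processing notes HISAT2, HTSeq and build hg38 were used; per the labels' protocols total RNA was prepared with a KAPA stranded mRNA kit. The sources used here do not give versions, annotation, strand setting or the handling of reads with several matches. Identifiers were matched to GENCODE 29 (58676 of 58721).

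Counts were fitted in edgeR 4.0.16 (R 4.3.3) as 6 group means: filterByExpr kept 21060 genes, with TMM factors, robust quasi-likelihood on 12 residual degrees of freedom, and calls at an adjusted p under 0.05. The common biological coefficient of variation was 4.02%. The fit was tested on simulated data. DESeq2 1.42.0 was an alternative. The SEs of the changes cover counting error and the spread between libraries of a group, which may be technical. The levels given for 3 counts reflect counting alone. Full values are given for the 8 members with the highest mean CPM and those called with at least a 2-fold change; of the other lists, for SLBP, NPAT and the 4 lowest p-values, 1 of which is not reported here. The split by 3′ UTR, the motifs, the pairs, the SOX10 effect by guide and the fit without 3 libraries are not in that design and were added after seeing the data. The members and lists were chosen with earlier results of these data known.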

Additional observations from a re-analysis of the deposited data

Results flagged for a closer look

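The SOX10 effect differed between knockout and control cells, by a test of that difference, in 11 of the 57 histone genes tested. That share of 19.3% was below the 33.3% of all genes called, 18.1% higher and 15.1% lower. SOX10 itself differed too, by 1.80. The difference on the log2 scale was −1.23 for H2AC6, −1.03 for H4C14, −0.97 for H4C9, −0.89 for H1-2, −0.85 for H4C15, −0.80 for H2BC12, −0.80 for H3C6, −0.72 for H2AC18, −0.72 for H2BC4 and −0.67 for H2AC19, and 1.04 for H2BC9. All of the first 10 also rose in knockout against control cells, which uses the same libraries. The knockout effect differed between the guides in 2 near-identical H4 genes, whose reads may be shared between them. It differed by −0.36 in H4C14 and −0.42 in H4C15 (guide 2 minus guide 1), where 8.74% of all genes were called.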

How the results depend on the processing

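The count of members called in knockout against control cells was 16 to 21 under every setting tried, including RLE and library-size scaling, DESeq2, other filters, only the groups compared and each library left out. With the replicate number as a block it stayed at 20, and 8 members were called for SOX10 in control cells; same-numbered libraries did not deviate together, with a median correlation of 0.0387, and in 3 of 45 pairs it was over 0.1. With a filter at a mean of 1 CPM, which tests fewer members, the calls were 3 for SOX10 in control cells (6), 12 for SOX10 in knockout cells (20), 12 for it in guide 1 (20) and 9 for knockout among SOX10 cells (14), with the reported count in brackets. Fitting only the groups compared gave 11 for SOX10 in control cells and 4 for guide 2 against guide 1 (2). Without the 3 libraries that stood apart, a choice made after seeing the data, the counts were 11 for SOX10 in control cells, 15 for knockout with SOX10 against control (9), 7 for knockout among SOX10 cells and 5 for guide 2 against guide 1. Of all genes 33.8%, 51.9%, 49.1% and 7.96% were called in these comparisons of that fit. With no filter 1 member differed between guides in its SOX10 effect (0). Library-size scaling gave 21 for knockout among SOX10 cells, 20 of them higher. Leaving out each library gave 7 to 19 for knockout among SOX10 cells, 0 to 3 for guide 2 against guide 1 and 0 to 2 for the guides' SOX10 difference. With library-size scaling the summed level averaged 126.8 CPM in the guide 1 knockout, 60.7 CPM in control cells with SOX10 and 61.9 CPM in control cells. The causes were not tested.

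Sign changes occurred in 33 of the values of single genes over all settings, none of a value called in the fit as reported. Without the 3 libraries H4C1 was at −0.12 in knockout against control, H3C12 at −0.42 and H2BC9 at −0.053 for SOX10 in knockout cells, and H3C12 at −0.44 and H2BC21 at −0.043 for the difference of SOX10 effects. With the block H2AC19 was at −0.0083 for SOX10 in control cells. Leaving out each library gave −0.16 to 0.31 for H4C1 in the knockout. For SOX10 in control cells it gave −0.048 to 0.21 for H4C14, −0.13 to 0.11 for H2AC19, −0.20 to 0.090 for H2BC5, −0.34 to 0.29 for H3C10 and −0.17 to 0.21 for H3C12. For SOX10 in knockout cells it gave −0.065 to 0.29 for H3C12 and −0.017 to 0.27 for H2BC9, and for the difference −0.031 to 0.21 for H2BC21 and −0.12 to 0.28 for H3C12. Members at under 1 CPM rested on small counts in a library, which limits the size of change that could be called.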
